A study of Mus musculus with 6 samples.

Results

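The genes described here are 9 regulators that keep progenitor cells in a young, growing state: the MYC family (Myc, Mycn and Mycl), the LIN28 pair (Lin28a and Lin28b), the IGF2BP family (Igf2bp1, Igf2bp2 and Igf2bp3) and Hmga2. They were taken by name: each probe of the deposited log2 value table to which the platform annotation gives one of these symbols was included. Probes were found for 8 of the 9 genes, 24 probes in all, out of 34885 named probes for 19057 genes. The annotation used here gives the symbol Igf2bp2 to 0 probes, so its expression was not analysed here.

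Illumina bead arrays compared the whole kidneys of mouse embryos at E13.5, 3 arrays of control kidneys against 3 of kidneys with the genotype YapCM-/-. The background of both groups was a mix of C57BL/6 and 129S1/SvImJ, and the labels give no further alleles, no sex and no litter for either. The comparison asks what changes when Yap is lost, the transcriptional coactivator that Hippo signalling restrains. From what is known of the study, CM stands for the cap mesenchyme, the Six2-positive nephron progenitors around the ureteric bud tips, and the deletion was made by a Cre recombinase under Six2 control; the labels do not spell this out. The bud, the stroma and the vessels are therefore part of each sample without being the cells targeted. The labels do not tie the 3 arrays of a group to separate animals, so p-values reflect array-to-array spread that may be technical.

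In the embryonic kidney the number of nephrons depends on how long the cap mesenchyme goes on renewing itself before it is used up. MYC proteins are transcription factors that pair with MAX at E-box sequences and raise ribosome production and growth metabolism, and Mycn is the family member best known for kidney growth. LIN28 proteins bind precursors of the let-7 microRNAs and block their maturation. Mature let-7 lowers transcripts such as Hmga2, Lin28b, Igf2bp1 and Mycn. The IGF2BP proteins bind and stabilise messenger RNAs, Myc and Igf2 among them, and HMGA2 is a chromatin protein of embryonic and stem cells. These genes are expressed in embryonic tissue and most decline with age.

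The let-7 family is what the LIN28 proteins restrain, and its seed, bases 2 to 8, is what its targets are matched to. Some of the family's mature sequences in RefSeq (GRCm38.p6) are shown with the seed in capitals. They are shown since one of the gene lists described further on holds targets of this family.
let-7a-5p: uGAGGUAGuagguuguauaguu
let-7b-5p: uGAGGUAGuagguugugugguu
let-7d-5p: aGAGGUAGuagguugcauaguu
let-7g-5p: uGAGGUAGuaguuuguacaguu
let-7j: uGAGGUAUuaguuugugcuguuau
The first 4 share the seed GAGGUAG, while let-7j has GAGGUAU. The members not printed, let-7c-5p, let-7e-5p, let-7f-5p, let-7i-5p, let-7k and miR-98-5p, also have GAGGUAG. The arrays measured no mature microRNA, so nothing here bears on let-7 levels.

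The deposited values are log2 signals with a median of 7.30 on each array. The fit covered the 22640 probes in the upper 50% by mean over all 6 arrays, a mean above 7.29. Of the 24 member probes 14 were tested, from 7 genes, and 10 lay below that limit. Yap1, the deleted gene, read 9.75, 9.81 and 9.64 in the control arrays and 8.91, 8.72 and 8.99 in the YapCM-/- arrays, a difference of -0.86 on the log2 scale (limma adjusted p = 0.0102). All YapCM-/- arrays were below all control arrays, and transcript remained. Its probe may or may not fall in the deleted part, as no source used here gives its position.

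None of the tested probes of the progenitor timing genes passed. In limma 0 of the 14 tested probes reached an adjusted p of 0.05, where 0.177% of all tested probes did, and the adjusted p-values of the members lay between 0.230 and 0.963. At an unadjusted p under 0.05 stood 3 of the 14, against 11.5% of all tested probes. Of these 2 were higher in YapCM-/- kidneys, against 5.53% of all tested probes, and 1 was lower, against 5.92%. The groups did not overlap at 2 of the 14, 1 higher and 1 lower, against 16.5% of all tested probes, 8.11% higher and 8.41% lower. No test sets these small counts against that background. The median log2 difference of the 14 was 0.03, against 0.0014 over all tested probes, with 8 higher and 6 lower. For 12 of the 14 the 95% confidence interval of the difference stayed within 0.5 either way on the log2 scale, a 1.41-fold change of signal, with its outermost bounds at -0.45 and 0.38. These bounds hold for the deposited signals, in which any background left in can narrow the differences of dim probes. The other intervals, both of Igf2bp3 probes, reached 0.57 and 0.89. In RNA of whole kidneys, fewer cells of a type and less RNA per cell cannot be told apart.

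**Figure D1:**
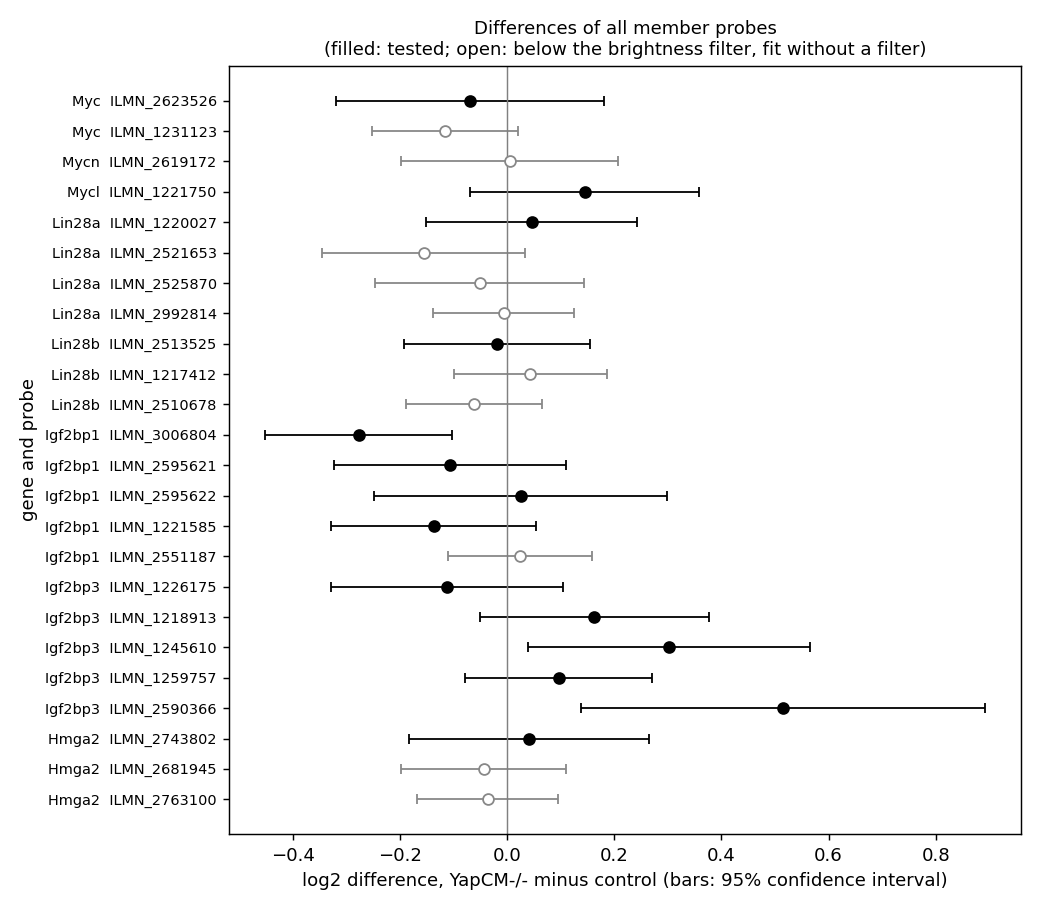
Log2 difference between YapCM-/- and control kidneys (x axis, YapCM-/- minus control) for each of the 24 member probes (y axis, gene and probe), with 95% confidence intervals. Filled points are the 14 tested probes and open points the 10 below the brightness limit, fitted without that limit. Igf2bp1 and Igf2bp3 hold the 3 intervals that do not include 0, 1 below and 2 above.

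Among the MYC family, Mycl and the brighter Myc probe were tested, and the lone Mycn probe lay below the brightness limit. Mycl encodes L-MYC, the least studied of the family. Its probe (ILMN_1221750) read 8.94, 8.73 and 8.95 in control replicates 1 to 3 and 8.98, 8.92 and 9.16 in YapCM-/- replicates 1 to 3. The groups overlapped, with control replicate 2 the lowest and YapCM-/- replicate 3 the highest. The difference was 0.14 (SE 0.096, 95% interval -0.07 to 0.36, limma adjusted p = 0.619).

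Myc itself was dim. Its brighter probe (ILMN_2623526) read 7.49, 7.59 and 7.57 in control and 7.36, 7.75 and 7.34 in YapCM-/- arrays, a difference of -0.07 (SE 0.112, interval -0.32 to 0.18, limma adjusted p = 0.870), or -0.33 with the background subtracted. The YapCM-/- arrays spread more widely than the control arrays and lay on both sides of them. The other Myc probe (ILMN_1231123) lay below the brightness limit, at 7.11, 6.97 and 7.09 in control and 6.94, 6.92 and 6.96 in YapCM-/- arrays. Its groups did not overlap, at a difference of -0.12 in the fit without a filter (limma adjusted p = 0.652), as was the case for 13.7% of all 45281 probes. The Mycn probe (ILMN_2619172) read between 6.91 and 7.18 in the control and between 6.93 and 7.17 in the YapCM-/- arrays, close to the lowest value of the table, 6.77. No detection value was used here, so it is unknown whether this or the other dim probes were above background. The difference of 0.0048 is therefore not to be read as evidence of stable Mycn expression.

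The LIN28 probes were dim, and no difference among them passed in limma. The brightest Lin28b probe (ILMN_2513525) read 7.97, 7.95 and 7.93 in control and 7.99, 7.98 and 7.83 in YapCM-/- arrays. The 6 values lay close together and the groups overlapped, with a difference of -0.02 (SE 0.078, interval -0.19 to 0.15, limma adjusted p = 0.955). The other Lin28b probes read no more than 7.19 on any array and had differences of 0.04 (ILMN_1217412) and -0.06 (ILMN_2510678). At the latter the groups did not overlap, by less than the second decimal, since control replicate 2 and YapCM-/- replicate 2 both read 7.02. Groups were apart at 13.7% of all 45281 probes.

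Lin28a, the paralogue best known from embryonic stem cells and early embryos, had 4 probes, and 1 of them passed the brightness limit. That probe (ILMN_1220027) read 7.37 on each control array and 7.58, 7.35 and 7.31 on the YapCM-/- arrays, so that YapCM-/- replicate 1 was the highest and the others were just below the controls. The difference was 0.05 (SE 0.088, interval -0.15 to 0.24, limma adjusted p = 0.897), or 0.14 with the background subtracted. The remaining probes differed by -0.16 (ILMN_2521653), -0.05 (ILMN_2525870) and -0.0059 (ILMN_2992814), each with overlapping groups. Primordial germ cells also express Lin28a, and a gonad lies next to the kidney. Of the 6 germ cell markers examined, Ddx4, Dazl, Dppa3, Dnd1 and Nanos3 had no probe above the brightness limit, and Pou5f1 read between 7.09 and 7.38 in control and 7.39 and 7.62 in YapCM-/- arrays, without overlap (limma adjusted p = 0.525).

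Hmga2, a let-7 target whose protein bends AT-rich DNA, passed the brightness limit with its brightest probe (ILMN_2743802). That probe read 8.40, 8.58 and 8.23 in control and 8.44, 8.53 and 8.35 in YapCM-/- arrays. All YapCM-/- values fell inside the range of the controls. The difference was 0.04 (SE 0.1005, interval -0.18 to 0.27, limma adjusted p = 0.924). The other Hmga2 probes, both under the brightness limit, differed by -0.04.

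**Figure D2:**
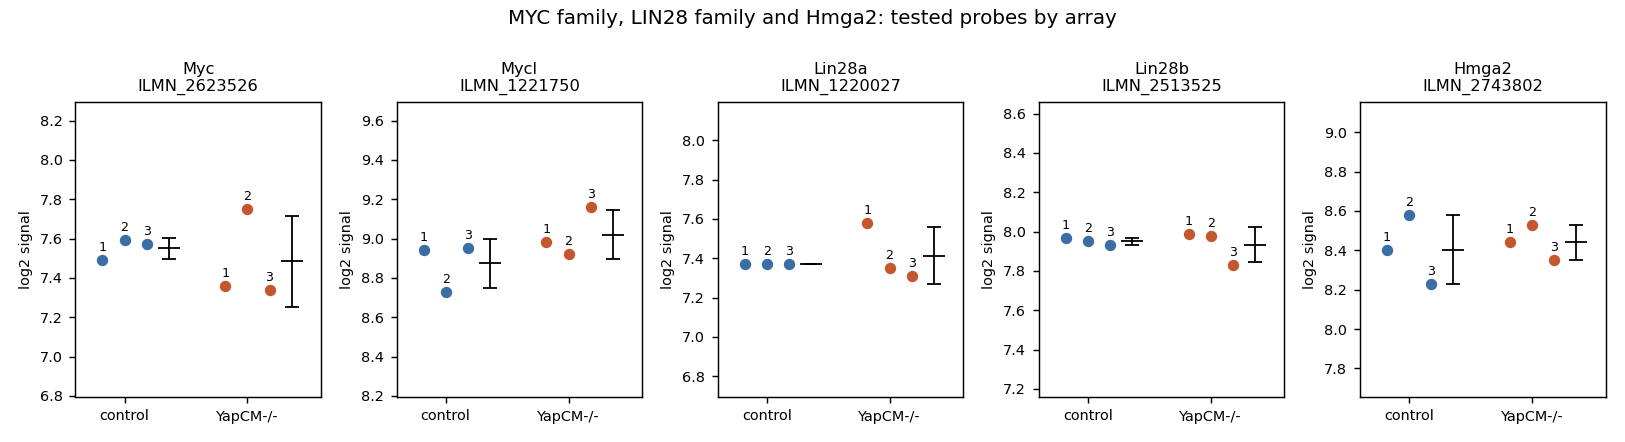
Log2 signal (y axis) on each array for the 5 tested probes of Myc, Mycl, Lin28a, Lin28b and Hmga2, in control (blue) and YapCM-/- kidneys (orange). Numbers are replicate numbers with no pairing implied, bars are the mean and SD of 3 arrays, and each panel spans the same height on the log2 scale; the groups overlap in all 5 panels.

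The IGF2BP family held the bright probes of the set, with 9 tested probes for Igf2bp1 and Igf2bp3, and all 3 member probes with an unadjusted p under 0.05. Igf2bp1 encodes an RNA-binding protein that shields Myc messenger RNA from decay and is itself a let-7 target. Its brightest probe (ILMN_3006804) read 11.73, 11.67 and 11.63 in control and 11.39, 11.48 and 11.33 in YapCM-/- arrays. All YapCM-/- arrays lay below all control arrays, with means of 11.67 ± 0.05 and 11.40 ± 0.08 (SD, n = 3 each). The difference was -0.28 (SE 0.078, interval -0.45 to -0.10, unadjusted p = 0.0055 in limma), 1.21-fold in signal, and it did not pass over all probes (adjusted p = 0.230). It lay between -0.32 and -0.24 with any of the 6 arrays left out.

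The other Igf2bp1 probes did not show a difference of that size. ILMN_2595621 read 10.77, 10.66 and 10.64 in control and 10.68, 10.69 and 10.39 in YapCM-/- arrays, a difference of -0.11 (limma adjusted p = 0.738). ILMN_1221585, which is annotated to a cDNA clone and not to the RefSeq messenger RNA, read 9.98, 10.07 and 10.14 against 10.04, 9.90 and 9.83, a difference of -0.14 (limma adjusted p = 0.590). ILMN_2595622 read 10.07, 10.03 and 9.91 against 10.09, 10.26 and 9.75, a difference of 0.03 (limma adjusted p = 0.963). At each of these the groups overlapped, and YapCM-/- replicate 3 was the lowest of the 6 arrays. The mean of the 4 tested probes differed by -0.12 (SE 0.081, limma adjusted p = 0.604), and the fifth probe (ILMN_2551187) lay below the brightness limit, with a mean of 7.10 in control and 7.13 in YapCM-/- kidneys.

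Igf2bp3, an oncofetal paralogue that is high in embryonic tissue, leaned the other way on 4 of its 5 probes, all tested. The largest difference was on the dimmest of them (ILMN_2590366), which read 7.55, 7.39 and 7.47 in control and 7.60, 7.94 and 8.42 in YapCM-/- arrays. All YapCM-/- arrays were above all controls, replicate 1 by little and replicate 3 by most. The means were 7.47 ± 0.08 and 7.98 ± 0.41 (SD, n = 3 each), a difference of 0.51 (SE 0.169, interval 0.14 to 0.89, unadjusted p = 0.0125 and adjusted p = 0.284 in limma), 1.43-fold in signal. It was 0.30 without YapCM-/- replicate 3 and 0.71 without YapCM-/- replicate 1. With the background subtracted it was 1.27 (limma adjusted p = 0.434), so that the fold of this dim probe depends on how the background is treated.

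A second dim Igf2bp3 probe (ILMN_1245610), annotated to a cDNA clone, read 8.11, 7.88 and 8.05 in control and 8.46, 8.44 and 8.05 in YapCM-/- arrays. Here YapCM-/- replicate 3, the highest array at the previous probe, was level with the controls and the groups overlapped. The difference was 0.30 (SE 0.118, unadjusted p = 0.0286 and adjusted p = 0.381 in limma), or 0.54 with the background subtracted. The third dim probe (ILMN_1259757), also on a cDNA clone, differed by 0.10 (limma adjusted p = 0.701), or 0.23 with the background subtracted.

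The bright Igf2bp3 probes, both annotated to the RefSeq messenger RNA, pointed in opposite directions. ILMN_1218913 read 11.40, 11.11 and 11.34 in control and 11.43, 11.37 and 11.54 in YapCM-/- arrays, a difference of 0.16 (interval -0.05 to 0.38, limma adjusted p = 0.563). ILMN_1226175 read 11.44, 11.59 and 11.28 in control and 11.24, 11.32 and 11.43 in YapCM-/- arrays, a difference of -0.11 (interval -0.33 to 0.10, limma adjusted p = 0.718). Control replicate 2 was the lowest of the 6 arrays at the former and the highest at the latter. Averaged over all 5 probes, Igf2bp3 differed by 0.19 (SE 0.071, limma adjusted p = 0.331). The probes of Igf2bp3 thus spanned 0.63 on the log2 scale in their differences, and those of Igf2bp1 0.30.

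**Figure D3:**
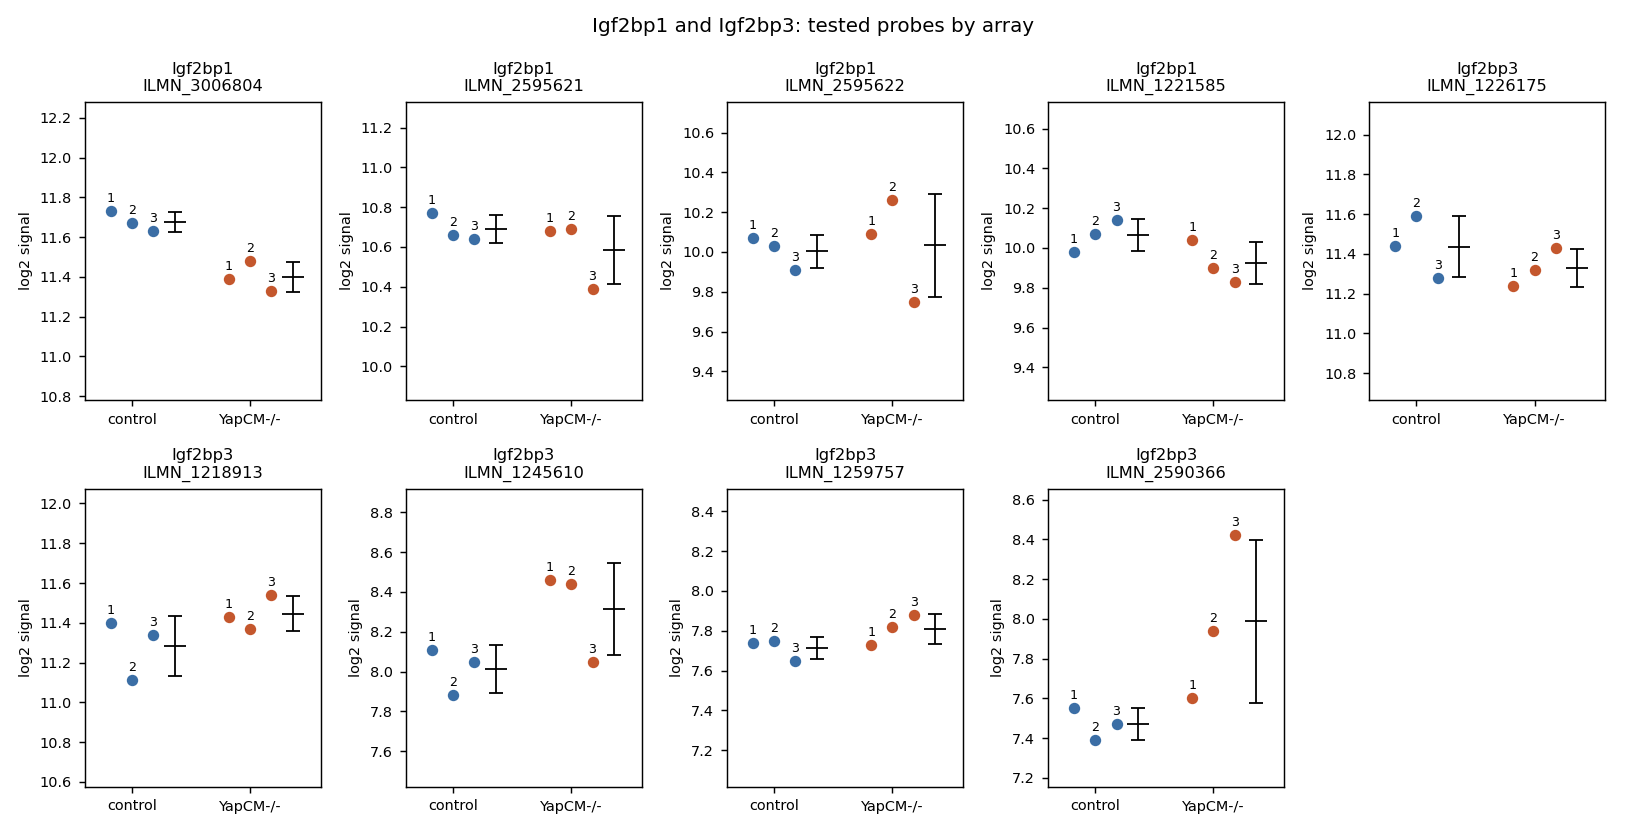
Log2 signal (y axis) on each array for the 4 tested probes of Igf2bp1 and the 5 of Igf2bp3, in control (blue) and YapCM-/- kidneys (orange), with replicate numbers, the mean and SD of 3 arrays, and the same height of log2 scale in each panel. The groups are apart at ILMN_3006804 (Igf2bp1, lower in YapCM-/-) and ILMN_2590366 (Igf2bp3, higher), and overlap at the other 7.

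The promoter of Igf2bp3 held the letters that MYC proteins recognise, and it is shown because MYC and IGF2BP are the families this set joins. In the RefSeq window of 250 bases before to 50 after the start (GRCm38.p6, chr6:49214905-49215204, minus strand), the E-box CACGTG, in capitals, occurs 2 times.
Igf2bp3 promoter: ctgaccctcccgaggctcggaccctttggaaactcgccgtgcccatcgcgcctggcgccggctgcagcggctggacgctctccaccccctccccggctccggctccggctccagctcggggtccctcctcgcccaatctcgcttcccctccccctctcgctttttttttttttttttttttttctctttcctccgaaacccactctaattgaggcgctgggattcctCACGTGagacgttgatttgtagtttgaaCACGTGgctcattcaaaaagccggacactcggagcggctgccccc
The table held such windows for 7 of the 9 genes, and 2 of the 7, Igf2bp3 and Lin28b, contained CACGTG, which reads the same on both strands, against 7.15% of all 32851 windows. The core letters GGAATG of the site for TEAD, the DNA-binding partner of YAP, were searched on both strands and were in 0 of the 7 windows, against 14.7% of all windows. Myc and Igf2bp1 had no window and were not searched, while Igf2bp2, which has no probe, was among the 7. A match is a description of letters and not of binding, and sites outside these windows were not searched.

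Genes that work with or under these regulators were described through 7 lists, each gene by its brightest tested probe, beside a median log2 difference of 0.0039 over 11762 tested genes, of which 1583 had an unadjusted p under 0.05. In limma 0 genes of these lists passed over all probes.

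The MYC network partners, genes of the wider network around MYC and MAX, had a median difference of 0.03 over 11 tested of 11 genes. Of these 2 were higher at an unadjusted p under 0.05 in limma. Zbtb17, the zinc-finger protein MIZ1 through which MYC represses genes, read 9.78, 9.62 and 10.11 in control and 10.24, 10.17 and 10.24 in YapCM-/- arrays, a difference of 0.38 (SE 0.117, limma adjusted p = 0.259). Mxd4, a MAX partner that opposes MYC, read 10.90, 10.69 and 11.19 in control and 11.29, 11.26 and 11.33 in YapCM-/- arrays, a difference of 0.37 (SE 0.117, limma adjusted p = 0.271), with another probe at -0.15. In both genes the groups did not overlap and control replicate 2 was the lowest array. Of the 11 partners 6 were above 0 and 5 below.

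The MYC target list, genes of ribosome biogenesis and growth metabolism, had a median of -0.10, with 19 of its 24 tested genes below 0 and 5 above. At an unadjusted p under 0.05 in limma stood 5 lower and 1 higher, against 5.92% lower and 5.53% higher of all tested probes. No test set the counts of this or any other pathway list against such shares. The list's median lay between -0.15 and -0.07 with any array left out. These counts rest on the brightest probe of each gene. Among the genes below 0, Cdk4, Eif4a1 and Hspd1 had another tested probe above 0, at 0.29, 0.17 and 0.09. The genes above 0 had no tested probe of the opposite sign. Nop58, a core protein of the particles that methylate ribosomal RNA, read 12.70, 12.92 and 12.55 in control and 12.17, 12.12 and 12.30 in YapCM-/- arrays, a difference of -0.52 (SE 0.104, limma adjusted p = 0.114) with groups apart. Ldha, lactate dehydrogenase A, read 13.62, 13.20 and 13.19 against 13.00, 12.63 and 13.02, a difference of -0.46 (SE 0.140, limma adjusted p = 0.256), with control replicate 1 well above the other controls. Ldha is also a glycolysis gene. The 16 tested proliferation genes had a median of -0.0047, with 3 lower and 0 higher at an unadjusted p under 0.05 in limma. Among them Mcm7, a subunit of the replicative helicase and itself a MYC target, stood at -0.43 (SE 0.084, limma adjusted p = 0.108) and Rrm2, a ribonucleotide reductase subunit, at -0.31 (limma adjusted p = 0.319), with another Rrm2 probe at 0.08.

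Genes around let-7 split both ways. The 13 tested genes of microRNA processing and let-7 turnover had a median of -0.0017. Tut7, an enzyme that adds uridines to let-7 precursors, differed by 0.27 (limma adjusted p = 0.283), with another probe at -0.13. Dicer1, which cuts the precursors, differed by -0.19 (limma adjusted p = 0.400), while its other 2 tested probes were above 0, the first at 0.03. The 13 tested let-7 targets outside the set, genes known to be lowered by the family whose seed is printed above, had a median of 0.03, and from -0.05 to 0.08 with an array left out. Irs2, an adaptor of the insulin and IGF receptors, read 8.06, 7.86 and 8.30 in control and 8.88, 8.49 and 8.68 in YapCM-/- arrays, with groups apart and a difference of 0.61 (SE 0.129, limma adjusted p = 0.133). Cdc34, a ubiquitin-conjugating enzyme, read 8.54, 8.23 and 8.38 against 7.92, 8.12 and 7.92, a difference of -0.39 (SE 0.101, limma adjusted p = 0.197). Irs2 and Cdc34 thus had groups apart in opposite directions. In the whole list of let-7 targets 1 gene was higher and 3 were lower at an unadjusted p under 0.05 in limma.

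Of the transcripts that IGF2BP proteins bind, 5 of 8 were tested, with a median of 0.10. Actb, the message in which zipcode binding by IGF2BP1 was described in chicken cells, differed by 0.24 on its brightest probe (limma adjusted p = 0.363), with 14.09, 13.93 and 14.21 in control and 14.29, 14.28 and 14.39 in YapCM-/- arrays. Ctnnb1, beta-catenin, differed by 0.11 (limma adjusted p = 0.682), with another probe at -0.23. The 6 tested inhibitors of cyclin-dependent kinases, which MYC and HMGA2 hold down in other tissues, had a median of 0.10. Cdkn1a, p21, differed by 0.22 (limma adjusted p = 0.417), with another probe at -0.11, and Cdkn1c, p57, by 0.19 (limma adjusted p = 0.547).

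**Figure D4:**
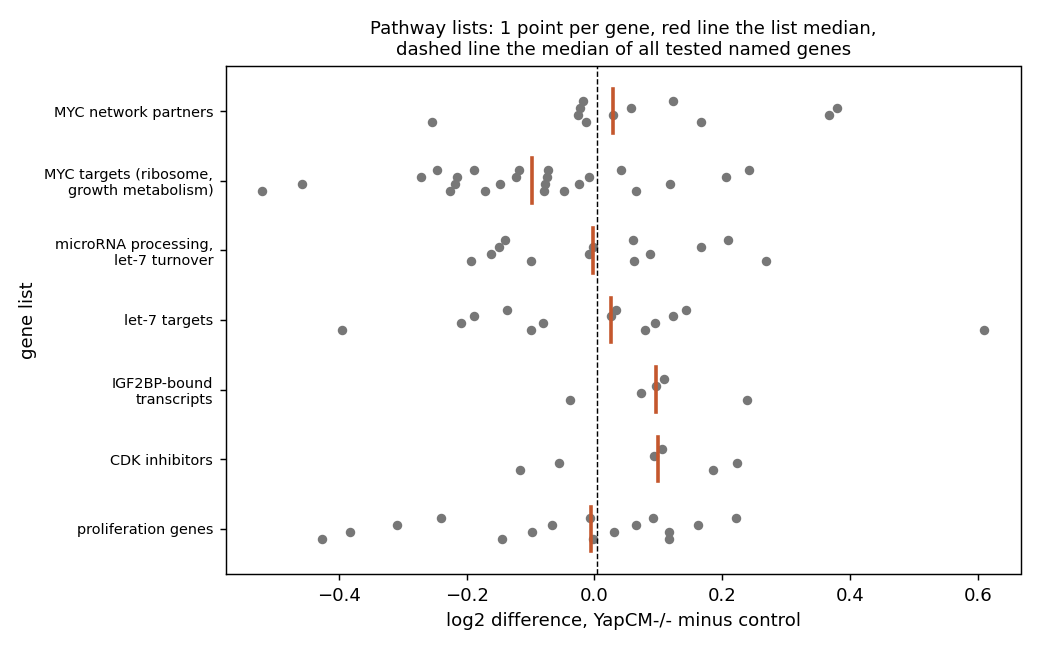
Log2 difference between YapCM-/- and control kidneys (x axis) for each tested gene of 7 pathway lists (y axis), 1 point per gene; the red line is the list's median and the dashed line the median of all tested named genes, 0.0039. The MYC target list has 19 of 24 points below 0, and the point farthest to the right is Irs2 at 0.61.

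The cell types of the organ were followed through marker lists, since a gene of one cell type can move with the share of that type. Of 13 tested cap mesenchyme markers 1 fell, Cited1, a coregulator of the least committed progenitors (-0.72, limma adjusted p = 0.0066), and 12 did not pass. At an unadjusted p under 0.05 stood 4 lower, Cited1 among them, and 1 higher, all with groups apart. The other lower ones were Six2 at -0.36 (limma adjusted p = 0.193), Pax2 at -0.36 (limma adjusted p = 0.193) and Itga8 at -0.23 (limma adjusted p = 0.381), and the higher one was Eya1 at 0.34 (limma adjusted p = 0.242). Another Itga8 probe stood at 0.05. Over all tested probes 11.5% had an unadjusted p under 0.05 in limma and 16.5% had groups apart. No test set the marker counts of any cell type against these shares. The summed signal of the 13 markers was 7713 to 8981 in control and 7979 to 8512 in YapCM-/- arrays, which overlap. Such sums are carried by the brightest probes, here Crym at 0.22 (limma adjusted p = 0.661) and Gdnf at 0.08 (limma adjusted p = 0.762), and do not show the lower values of Cited1, Six2, Pax2 and Itga8. Of 8 ureteric bud markers Ret, the GDNF receptor of the bud tips, rose (0.83, limma adjusted p = 0.0147) and 7 did not pass, with sums of 9785 to 10252 and 10210 to 11071. The 8 early nephron markers had a median of -0.42 and 0 passed in limma, with 5 lower and 1 higher at an unadjusted p under 0.05. Their summed signal, 8963 to 10121 in control and 6883 to 7589 in YapCM-/- arrays, did not overlap between the groups. This sum too is carried by its brightest probes, Lhx1 at -0.46 (limma adjusted p = 0.0943) and Osr2 at -0.66 (limma adjusted p = 0.0870). Another Lhx1 probe stood at 0.01, and Pax8 (0.39), Wnt4 (0.19) and Dll1 (0.0044) were above 0. The part of the early nephron markers in the Igf2bp1 and Igf2bp3 values was not tested. Stromal sums were 13891 to 17385 in control and 13838 to 16342 in YapCM-/- arrays, and of the stromal, endothelial, erythroid and macrophage markers 0 passed in limma. Erythroid sums, 43944 to 48242 in control and 49709 to 50450 in YapCM-/- arrays, did not overlap either. Of the 5 tested erythroid markers 3 were above 0 and 2 below. Endothelial and macrophage sums overlapped. At an unadjusted p under 0.05 stood 3 stromal markers, all lower, and 2 endothelial markers, Tek higher and Flt1 lower. The stromal list as a whole had 4 markers above 0 and 4 below, with a median of -0.03. Among the 3 lower ones, Col3a1 (-0.45) had another probe at 0.22. Of the neural crest and neuron markers and of the gonad and adrenal markers, only Tubb3 and Cyp11a1 had a tested probe, with no value above 7.45.

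The named genes whose signals ran most like the lowest-p probe of each IGF2BP gene were found by Pearson's r over the 6 arrays, as a description. For Igf2bp1 (ILMN_3006804) they were Pex11g (r = 0.991), Ptgr2 (0.986) and Ints3 (0.984), and for Igf2bp3 (ILMN_2590366) Ubp1 (0.994), Krt78 (0.992) and Tsr3 (0.988). With 6 arrays such values are common: 48 probes of other genes had r above 0.95 with the Igf2bp1 probe and 68 with the Igf2bp3 probe. All 6 values also share the group difference and the arrays themselves.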

How the data were processed

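Per the labels' protocols, biotin-labelled cRNA made from total RNA was put on Illumina bead arrays. The deposited values are log2 signals of 45281 probes, 1 column per sample. When sorted, the 6 columns agree to within 0.00608, as quantile normalization leaves; for software and background step the sources used here give nothing. No background subtraction is visible, so fold changes of dim probes that carry signal may be understated. A second deposited table was not used, because its 12 columns of per-sample values carry names that match no label.

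Probes were named through the platform annotation, 34885 with 1 symbol, 18 with several (not named) and 10378 not listed; it can be old. Gene lists were matched through RefSeq gene identifiers (GRCm38.p6). That table's gene coordinates are not given, since the arrays' build is unknown.

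Groups were compared with lmFit and eBayes of limma 3.58.1 (R 4.3.3), two-sided and without covariates, and p-values were adjusted by Benjamini-Hochberg over all 22640 tested probes at a threshold of 0.05. Every adjusted p is from limma. Probes below the brightness limit were fitted with all 45281 probes. On simulated data the fit recovered 81.7% of changes of 0.5 on the log2 scale and 99.6% of changes of 1, with 7.5% false calls. The simulated noise was independent and normal, with SDs taken from the fit, so recovery on the real arrays may be lower. On these, Irs2 at 0.61 (limma adjusted p = 0.133) and Nop58 at -0.52 (limma adjusted p = 0.114) did not pass, while Cited1 at -0.72 did. The simulation therefore does not show that member changes of 0.5 would have been found. Named are all member probes, Yap1, and from each marker list the genes past the threshold. Each pathway list gives up to 4 genes past the threshold, or else the 2 with the smallest p. Pou5f1, Tubb3, Cyp11a1, Tek, Flt1, Six2, Pax2, Itga8, Eya1, Crym and Gdnf were added after their values were seen. So were the early nephron markers Lhx1, Osr2, Pax8, Wnt4 and Dll1, and also Col3a1, Cdk4, Eif4a1 and Hspd1. Members and lists were chosen with earlier results of these data known. Other settings covered the brightness limit, eBayes options, array weights, the replicate block, background subtraction, centring, averaging of probes and each array left out. With 3 arrays in each group, their number limits the precision.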

Additional observations from a re-analysis of the deposited data

How the results depend on the processing

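The count of member probes past the threshold was 0 under each of the 13 alternatives that treat probes singly and with the mean of each gene's probes; 1 to 3 stood at an unadjusted p under 0.05 in limma, and the smallest adjusted p of any member probe in limma was 0.149, for Igf2bp3 with the replicate block. Among all probes the count past the threshold, 40 as reported, was 26 when only the brightest 25% of probes were tested, 64 with trend and robust options, 138 with the replicate block and 0 with the background subtracted (2180 at an unadjusted p under 0.05 in limma), and 6 to 27 with an array left out. Same-numbered arrays were not taken as pairs: their deviations from the group means correlated at 0.132, 0.142 and -0.021, and the labels tie a number to nothing shared, so the replicate block says nothing about a stronger effect. Of 177 values of the 14 tested member probes under the alternatives, 169 kept their sign and 8, all with an array left out, did not. With the background subtracted the differences of dim tested probes grew, that of Igf2bp3 (ILMN_2590366) from 0.51 to 1.27, with its sign kept. The 8 values that changed sign belonged to probes that differed by little: Myc (ILMN_2623526, -0.203 to 0.00293), Lin28a (ILMN_1220027, -0.0365 to 0.0973), Lin28b (ILMN_2513525, -0.0487 to 0.0318), Igf2bp1 (ILMN_2595622, -0.0890 to 0.168) and Hmga2 (ILMN_2743802, -0.0448 to 0.129). The other 9 tested probes, with those of Igf2bp1 and Igf2bp3 at an unadjusted p under 0.05 among them, kept their sign throughout. Medians of the pathway lists with an array left out were added after seeing the data; those of the MYC network partners (-0.00082 to 0.07), the let-7 targets (-0.05 to 0.08), the microRNA processing genes (-0.05 to 0.04) and the proliferation genes (-0.06 to 0.03) changed sign.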
